A study of Mus musculus with 12 samples.

Results

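Circular RNAs (circRNAs) made from genes of the ubiquitin system were followed in 4 mouse cell lines. A circRNA forms when a splice donor joins an upstream acceptor, so that 1 or more exons close into a ring, and the gene that supplies the exons is its host. Members were all circRNAs with a single named host whose symbol begins with Usp, Ube2, Ube3, Ube4, Ubr, Fbx, Rnf, Herc, Hectd, Cul, Trim or Klhl (a digit following where the family is numbered). This took 418 of the 13474 circRNAs listed for either lineage, from 135 hosts, and 403 circRNAs of 133 hosts had reads. The rule itself reads symbols and no expression values. The mammary table lists 318 members of 116 hosts, all with reads, while 405 are listed for the melanocyte lineage, of which 293 of 108 hosts had reads.

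The mammary lineage was sampled in 4T1, a breast cancer line, and Eph4-ev, a line of breast epithelial cells. The melanocyte lineage was sampled in B16F10, a melanoma line, and Melan-a, a line of melanocytes. Each line gave 3 libraries, and no treatment is named. No genotype is given. RNA was treated with RNase R, which digests linear RNA, and reads across back-splice junctions were counted. Within a lineage, the tumour line was set against the non-tumour line. Since each lineage holds 1 line of each kind, tumour state cannot be told apart from any other difference between the lines. The labels do not say whether the 3 libraries of a line came from separate cultures, so p-values measure the spread between these libraries, which may be technical.

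Ubiquitin is passed from an activating enzyme to a conjugating enzyme (E2, the Ube2 genes) and from there, with a ligase (E3), to a substrate protein. Ligases set the choice of substrate: Rnf, Trim and many other RING proteins bring E2 and substrate together, Herc, Hectd and Ube3 proteins carry a HECT domain, Ubr proteins read N-terminal degradation signals, and cullins (Cul) are scaffolds onto which F-box (Fbx) or Kelch-like (Klhl) adaptors load substrates. Deubiquitinases, here the Usp proteases, take ubiquitin off again. These are functions of the proteins. The values below are of circular transcripts of the same genes and say nothing of the linear mRNA or the protein.

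Depth was low: libraries held 15572 to 56649 junction reads in all, and members took 2.99% to 3.29% of them. A level is given in RPM, the junction reads scaled to a library total of 1000000, so that 1 read stood for 17.7 to 64.2 RPM. Each junction is a single site, so the RPM of a circle does not grow with gene length. The RPM of a host is summed over its circles and can rise with their number. Markers matched the labels: hosts of a melanocyte list of 10 genes had 124 to 293 reads per Melan-a library, with 8 of 10 detected, 182 to 243 per B16F10 library, with 7 of 10, 0 in 4T1 and 0 to 5 in Eph4-ev (Mitf alone). Of 8 epithelial genes, Cdh1, Epcam, Esrp1 and Grhl2 had reads in both mammary lines, and the list's sum was 0 in B16F10 and 0 to 1 in Melan-a. Fibroblast and immune lists were at 0 in all 12 libraries, and of the endothelial list only Pecam1 had reads, 0 to 2 per Eph4-ev library. Of member circRNAs with at least 20 reads in some 4T1 library, 3 of 21 had 0 in another 4T1 library (14.3%, against 11.2% of all circRNAs). In the other lines it was 0 of 24 in Eph4-ev, 0 of 8 in B16F10 and 0 of 10 in Melan-a, against 4.18%, 1.64% and 4.92% of all circRNAs. In RNA of whole cultures, fewer cells holding a circle and fewer copies per cell cannot be told apart.

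The join of a circle is its only stretch that the linear transcript lacks. The joins below belong to the circles on which the results turn. Each reads 5′ to 3′ in the sense of the host, with the last 15 bases of the circle in lower case and the first 15 bases of its first exon in capitals, from GENCODE M21 transcripts (coordinates on mm10).
Rnf169, exons 2 to 4 (chr7:99935162-99955540, minus strand): agcgttcctggcaggAGTTTATATTCAGAA
Fbxw7, exon 3 (chr3:84903501-84904079, plus strand): acaaagacaacaaaaAATGTGAAAACCTTT
Fbxw8, exons 6 to 7 (chr5:118092496-118095729, minus strand): tatgaaggaaacaagGGATCCTTAACATTT
Fbxo42, exons 2 to 4 (chr4:141167713-141180532, plus strand): gaccattggcctcagAGCTTCGAGTGTGTC
Ube2cbp, exons 4 to 8 (chr9:86422841-86440754, minus strand): aagcaggaataaagaGAAACTCCTCAGGGT
Usp3, exons 2 to 8 (chr9:66540062-66566903, minus strand): catgcctaactttagTGTGCAGGTCCAACA
Usp12, exons 2 to 3 (chr5:146763201-146769017, minus strand): tgcggaaagaaaacgGGCGCCAATGCCTCG
Rnf115, exons 2 to 4 (chr3:96754335-96775841, plus strand): gccagctatcgaaggGAATATATATGTCCC
Fbxw4, exons 2 to 5 (chr19:45630865-45640521, minus strand): cagcccattactcagCATGGCAGGCATTCC
Fbxw4, exons 2 to 4 (chr19:45635735-45640521, minus strand): gacaggacagccaagCATGGCAGGCATTCC

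The pair of Fbxw4 joins shows how a host yields several circles. Both begin at the same base of exon 2, so their capitals are identical, and they differ in the exon from which the splice returns. Both were found in all 12 libraries. Among the 81 hosts with reads in more than 1 circle, the most abundant circle held a median of 59.8% of the host's RPM, and over 50% in 55 of them. Trim37, a RING ligase of the tripartite motif family, had the most circles listed, 18, and 48 hosts had only 1.

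Exon structure of the members was close to that of all circRNAs, apart from a larger share that began at exon 2. Both ends lay at exon boundaries of 1 GENCODE transcript for 412 of 418 members (98.6%, against 97.9% of all circRNAs). Members held a median of 3 exons, as did all circRNAs, and had a median spliced length of 475.5 bases against 481. Members began at exon 2 in 166 cases (40.3%, against 32.9% of all circRNAs) and at exon 1 in 0, as 36 of all circRNAs did. Single-exon circles were 3.88% of members and 4.27% of all. Lying in coding sequence alone were 82.9% of members, and 63 (15.4%) ran across the annotated start codon, against 83.6% and 14.9% of all circRNAs. The Fbxw7, Fbxo42 and Klhl22 circles described below are of the latter kind. Spliced lengths that are a multiple of 3, in which a reading frame could pass the join unbroken unless it meets a stop codon, made up 35.6% of members and 37.6% of all. The Fbxw7 circle, 579 bases long, and the Ube2cbp circle, 582 bases long, are such cases. Circles of a host share exons and are not independent, so these shares are given without a test.

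**Figure D1:**
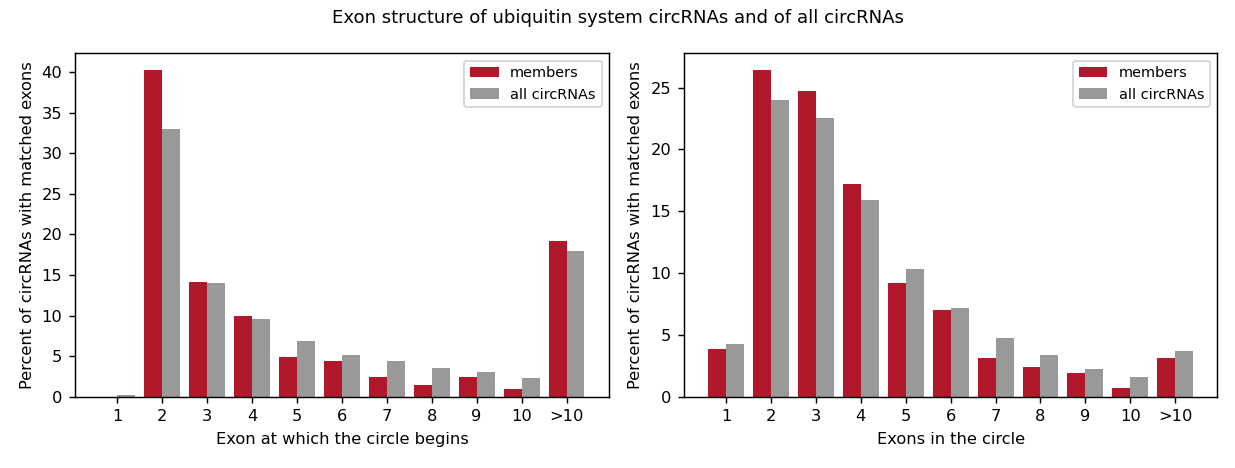
Left, the exon at which a circle begins, and right, the number of exons it holds, as percent of circRNAs whose ends match exons of 1 transcript (red bars, 412 members; grey bars, all 13195 matched circRNAs). Exon 2 is the tallest bar at left for both sets, at 40.3% and 32.9%.

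Ligase hosts supplied most member reads in every library. The 91 ligase hosts (291 circRNAs) took 65.4%, 71.6% and 71.99% of member reads in the 4T1 libraries, 74.6%, 72.5% and 76.6% in Eph4-ev, 87.9%, 80.8% and 88.5% in B16F10 and 89.7%, 89.8% and 89.4% in Melan-a. The 32 deubiquitinase hosts (99 circRNAs) took 10.2%, 11.4% and 11.99% in 4T1, 15.3%, 17.1% and 13.3% in Eph4-ev, 6.71%, 10.4% and 8.10% in B16F10 and 5.60%, 6.45% and 6.58% in Melan-a. Deubiquitinase shares thus did not overlap within either lineage: they were lower in the mammary tumour line than in its counterpart and higher in the melanoma line than in its own. Usp6nl fits the symbol pattern, but its product is a Rab GTPase-activating protein. With it left out, the shares were 8.91%, 9.65% and 10.96% in 4T1 and 12.2%, 13.2% and 10.6% in Eph4-ev, and 6.10%, 8.38% and 8.10% in B16F10 against 5.47%, 6.45% and 6.46% in Melan-a, so that they overlapped in both lineages. Reads of ligase hosts outnumbered those of deubiquitinase hosts 6.25 ± 0.22 times in 4T1, 4.96 ± 0.76 in Eph4-ev, 10.6 ± 2.7 in B16F10 against 14.5 ± 1.3 in Melan-a (SD, n = 3). The 2 lineages' tables were scaled separately.

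The 12 E2 hosts (28 circRNAs) took 24.4%, 17.04% and 16.03% of member reads in 4T1, 10.2%, 10.4% and 10.1% in Eph4-ev, 5.40%, 8.75% and 3.36% in B16F10 and 4.67%, 3.70% and 4.00% in Melan-a. In 4T1 every library lay above every Eph4-ev library, while the melanocyte lines overlapped. Ube2cbp carried much of this: its circles stood at 4130 ± 977 RPM in 4T1 out of 6195 ± 1616 RPM for all E2 hosts (SD, n = 3). Its product (Ube3d in newer naming) is a ligase-type protein that binds an E2 enzyme. With Ube2cbp not counted as E2, the share was 9.38%, 3.61% and 6.21% in 4T1 against 5.21%, 3.95% and 3.24% in Eph4-ev, and the libraries of these lines overlapped. Reads in all 12 libraries were found for 1 of 32 deubiquitinase hosts (Usp3), 23 of 91 ligase hosts and 2 of 12 E2 hosts. The share among all hosts is not given here, so no class difference is read from these counts.

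**Figure D2:**
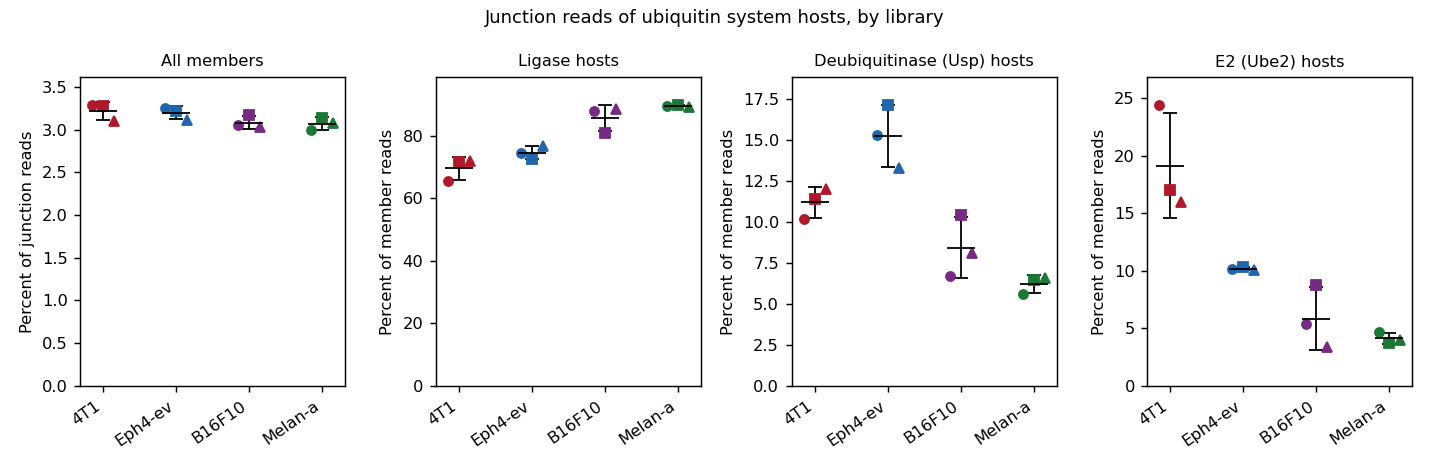
Percent of all junction reads taken by members, and percent of member reads taken by ligase, deubiquitinase and E2 hosts, with 1 point per library (circle, square and triangle for replicates 1, 2 and 3) and bars for the mean and SD of 3 libraries. Members as a whole lie between 2.99% and 3.29% in all 12 libraries, while deubiquitinase hosts lie highest in Eph4-ev (13.3% to 17.1% of member reads).

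A 4T1 library held 110, 115 or 125 member circRNAs, an Eph4-ev library 166, 192 or 161, a B16F10 library 121, 107 or 112 and a Melan-a library 117, 136 or 107. At the depth of the shallowest library (15572 reads) the expected numbers were 108 ± 4 in 4T1, 121 ± 9 in Eph4-ev, 108 ± 4 in B16F10 against 99.4 ± 7.8 in Melan-a (SD, n = 3). Of all member circRNAs, 18 had reads in all 12 libraries and 113 in a single library.

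Rnf169, whose product binds ubiquitin-marked histones at DNA breaks, was the most abundant host. Its circles had 32, 38 and 36 reads in 4T1, 163, 188 and 198 in Eph4-ev, 117, 104 and 111 in B16F10 against 180, 233 and 139 in Melan-a, or 1668 ± 747, 3367 ± 178, 6211 ± 405 and 6549 ± 895 RPM (SD, n = 3). 4T1 was lowest in every library and the melanocyte lines highest. 4T1 replicate 3 stood apart at 807 RPM, against 2055 and 2143 in the other 4T1 libraries. The circle of exons 2 to 4 was the first or second most abundant member circRNA of every line, at 1550 ± 644, 3258 ± 72, 5920 ± 319 and 6357 ± 720 RPM (SD, n = 3).

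F-box hosts filled 5 of the next 7 places. Fbxw4 stood at 1917 ± 958 RPM in 4T1, 1928 ± 264 in Eph4-ev, 3276 ± 424 in B16F10 against 3156 ± 174 in Melan-a (SD, n = 3), with overlapping libraries within each lineage. Fbxw7, the substrate receptor through which cyclin E and Myc are degraded, stood at 1460 ± 554, 2150 ± 169, 1753 ± 261 and 690 ± 160 RPM in the same order (SD, n = 3). Fbxl17, a quality-control receptor for BTB proteins, stood at 1250 ± 147, 810 ± 281, 990 ± 265 and 1833 ± 587 RPM (SD, n = 3), and neither comparison passed the test (edgeR adjusted p = 0.408 and 0.114). Fbxw8, a partner of a cullin scaffold, stood at 1057 ± 760, 634 ± 292, 772 ± 211 and 1943 ± 290 RPM (SD, n = 3). Fbxl5, the iron-sensing receptor that degrades iron regulatory proteins, had 18, 1 and 34 reads in 4T1 against 91, 96 and 59 in Eph4-ev. Its fitted log2 fold came to -1.32 (with an SE of 0.51, edgeR adjusted p = 0.0867, and 0.00199 to 0.322 over 12 alternatives, 3 of which called it: no filter, the replicate block at 0.00696, and without 4T1 replicate 1).

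Ube2cbp separated the lineages: its circles had 77, 78 and 136 reads in 4T1 against 82, 117 and 118 in Eph4-ev, against 5 to 7 in each B16F10 and Melan-a library. Ube2k, an E2 enzyme, had 34, 8 and 41 reads in 4T1 against 50, 61 and 51 in Eph4-ev, or 1184 ± 896 and 994 ± 80 RPM (SD, n = 3). It was not called there (log2 fold 0.06 with an SE of 0.43, edgeR adjusted p = 0.948). Usp3, a deubiquitinase of histones and the most abundant host of its family, stood at 951 ± 304 RPM in 4T1, 1603 ± 248 in Eph4-ev, 516 ± 191 in B16F10 against 504 ± 188 in Melan-a (SD, n = 3). The RING ligase hosts Rnf114, Trim37 and Rnf111 (Arkadia, a ligase of TGF-beta signalling) completed the 12 most abundant, and none of the 3 was called in either comparison. The most abundant hosts of other families included Herc2 (259 ± 34 to 690 ± 721 RPM over the lines, SD, n = 3), Cul1, the scaffold of F-box ligases (201 ± 274 to 469 ± 69), and Ubr3 (265 ± 82 to 449 ± 169). Others were Klhl22 (39.7 ± 68.8 to 540 ± 324), Ube4b (80.4 ± 70.1 to 376 ± 50) and Ube3c (76.5 ± 92.7 to 182 ± 165). None of them was called at host level except in alternatives. In the mammary comparison Cul1 was called only without 4T1 replicate 1 (log2 fold -3.06, edgeR adjusted p = 0.0317). Ube4b was called there only with no filter (log2 fold -2.86, edgeR adjusted p = 0.0486).

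**Figure D3:**
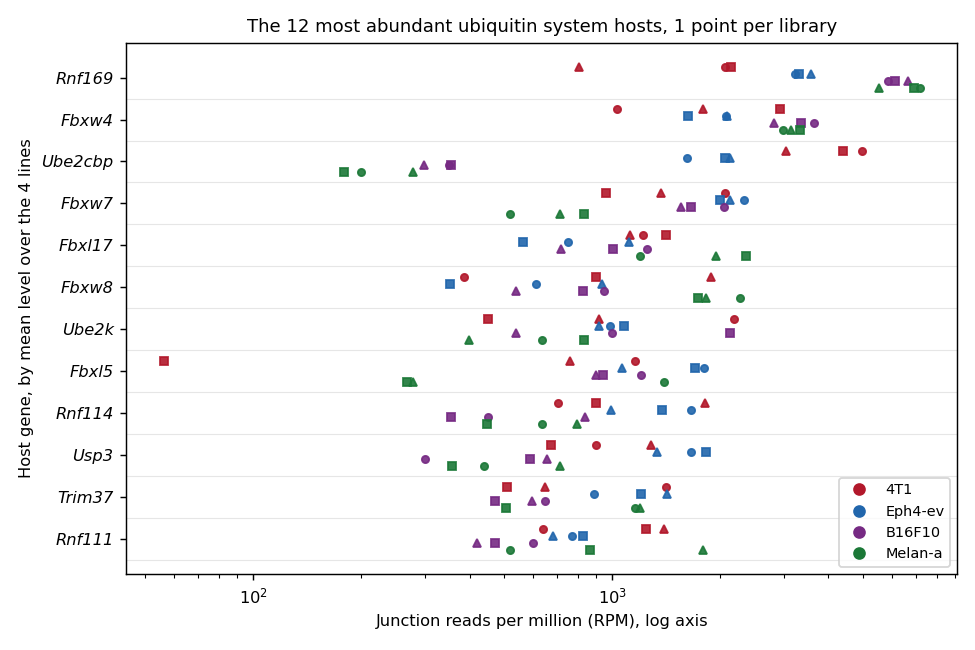
RPM of the 12 most abundant hosts on a log axis, summed over the circles of a host, with 1 point per library coloured by line (circle, square and triangle for replicates 1, 2 and 3). Ube2cbp lies at 179 to 354 RPM in both melanocyte lines and between 1619 and 4945 RPM in both mammary lines.

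In 4T1 against Eph4-ev, 7 of 54 member hosts tested were called at an adjusted p under 0.05, 4 higher and 3 lower in 4T1. Among all 1515 hosts tested, 6.86% were called higher and 10.6% lower, so the members' 4 and 3 in 54 are near or below the background. The median log2 fold was 0.06 for members and -0.09 for all hosts tested. Hosts higher in 4T1 were Ube2cbp, the F-box host Fbxo42, the cullin adaptor host Klhl12 and the cullin scaffold host Cul4a. Those lower were the RING ligase hosts Rnf169 and Rnf115, and Usp6nl. By class, 3 of 41 ligase hosts rose and 2 fell (median log2 fold 0.11). Of 4 E2 hosts 1 rose, Ube2cbp, whose product is the ligase-type protein named above (median 0.66). Of 9 Usp hosts tested 0 rose and 1, Usp6nl, fell (median -0.82, with 3 of 9 folds positive against 713 of 1515 among all hosts). At an unadjusted p under 0.05 stood 14 of the 54, against 472 of all 1515 (31.2%). The count of 7 moved with single libraries: leaving out 4T1 replicate 1 gave 12 and 4T1 replicate 3 gave 4. Without an Eph4-ev library it was 2 (replicate 1), 0 (replicate 2) or 3 (replicate 3). Members tested then numbered 58 to 60. Each such fit has fewer libraries for all hosts, and the share of all hosts called in it is not given here.

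Fbxo42 had 10, 4 and 5 reads in 4T1 and 0 in each Eph4-ev library, at least 13.2-fold higher in 4T1 against a floor of 3 reads over the line at 0 (edgeR adjusted p = 0.0126, and 0.00189 to 0.0932 over 10 alternatives). Its call was lost without Eph4-ev replicate 2 (0.0932) or 3 (0.0502). Klhl12, an adaptor in the export of large cargo from the endoplasmic reticulum, had 5, 3 and 12 reads against 0, 0 and 0, at least 13.9-fold higher (edgeR adjusted p = 0.0126, and 0.00402 to 0.0862 over 10 alternatives). That call was lost without any 1 Eph4-ev library (0.0503, 0.0862 and 0.0543) and with replicate number as a block (0.0552). Both hosts had reads in each of the melanocyte lines.

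Ube2cbp was higher in 4T1 by 0.92 on the log2 scale (SE 0.23, edgeR adjusted p = 0.0114, and 0.00372 to 0.0986 over 12 alternatives), with every 4T1 library above every Eph4-ev library. Its call ended without Eph4-ev replicate 1 (0.0767) or 2 (0.0986). Cul4a had 4, 10 and 25 reads in 4T1 against 6, 2 and 5 in Eph4-ev (log2 fold 2.36 with an SE of 0.77, edgeR adjusted p = 0.0451). It was the weakest call: 7 of its 12 alternatives lost it, and its adjusted p ran from 0.0249 to 0.183, losing it without 4T1 replicate 2 (0.0950) or 3 (0.154), without any 1 Eph4-ev library (0.0905, 0.183 and 0.130), with replicate number as a block (0.119) and with no filter (0.113).

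Rnf169 was lower in 4T1, at -1.25 on the log2 scale (SE 0.30, edgeR adjusted p = 0.00987, and 7.29e-06 to 0.112 over 12 alternatives, lost only without Eph4-ev replicate 2). Its 4T1 and Eph4-ev libraries did not overlap. Rnf115 (also called BCA2) had 0 reads in each 4T1 library and 17, 8 and 14 in Eph4-ev, at least 6.22-fold lower in 4T1 (edgeR adjusted p = 0.0182, and 0.00983 to 0.0905 over 11 alternatives). It was lost without 4T1 replicate 3 (0.0508) or any 1 Eph4-ev library (0.0905, 0.0876 and 0.0672). Usp6nl had 7, 11 and 16 reads in 4T1 against 58, 82 and 53 in Eph4-ev (log2 fold -1.50 with an SE of 0.39, edgeR adjusted p = 0.0167, and 0.00396 to 0.128 over 12 alternatives). This call was lost without 4T1 replicate 3 (0.0634), Eph4-ev replicate 1 (0.0534) or 2 (0.128).

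**Figure D4:**
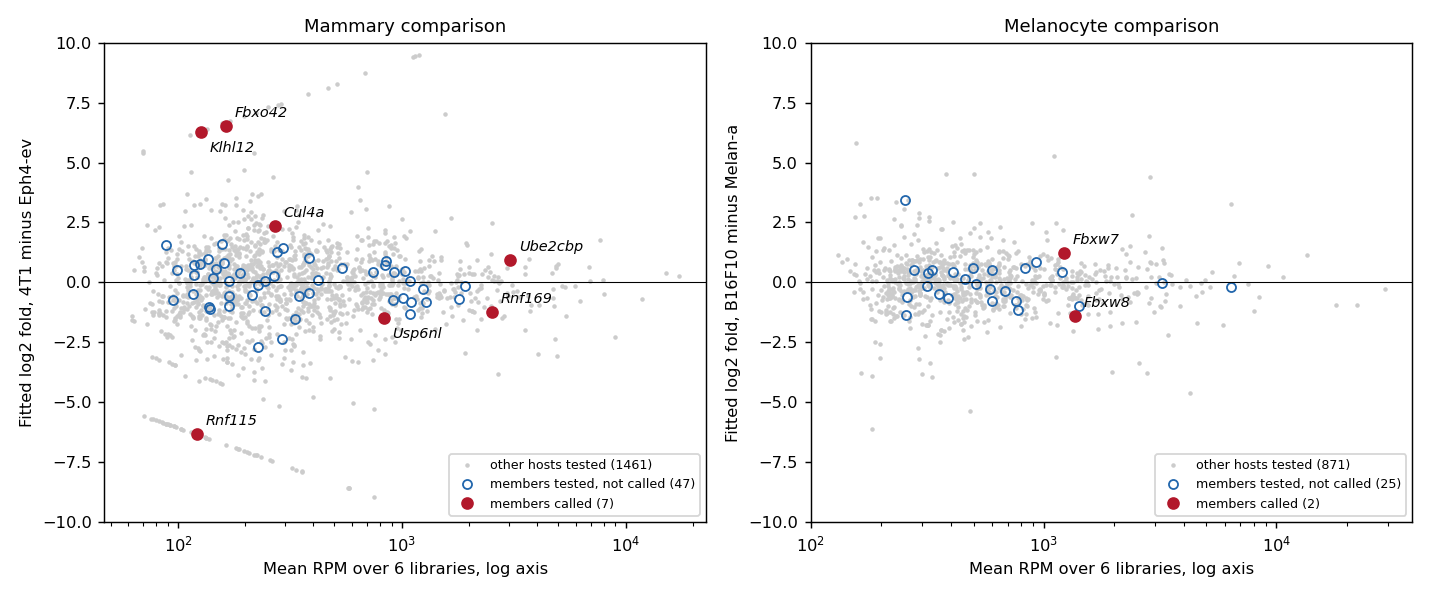
Fitted log2 fold of hosts (tumour line minus non-tumour line) against mean RPM on a log axis, for the mammary and the melanocyte comparison (grey, other hosts tested; open blue, members not called; filled red, members called). Called members number 4 above and 3 below 0 at left, with Fbxw7 above and Fbxw8 below 0 at right. Fitted folds beyond about 5 belong to hosts at 0 in a line and depend on the prior count.

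Tested circle by circle, 10 of 62 member circRNAs were called in the mammary comparison, 4 higher and 6 lower in 4T1. Of all 1869 circRNAs tested, 5.99% were called higher and 11.4% lower (112 and 213, or 142 and 176 with total-read scaling). The median log2 fold was -0.17 for members and -0.22 for all. The count was 5 with any 1 of the 4T1 libraries left out. Leaving out an Eph4-ev library gave 2 (replicate 1), 1 (replicate 2) or 3 (replicate 3). Members tested in these 6 fits numbered 79 to 89. Higher were the circle of Ube2cbp and those of the adaptor hosts Klhl22 and Fbxo42 and of Rnf114. Among the lower were those of Rnf169, Usp3, Fbxw7, Rnf115 and Usp12.

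The Ube2cbp circle of exons 4 to 8 had 34, 40 and 81 reads in 4T1 against 19, 48 and 37 in Eph4-ev, or 2085 ± 236 and 630 ± 238 RPM (SD, n = 3). Its fitted log2 fold came to 1.47 (with an SE of 0.33, edgeR adjusted p = 0.0145, and 0.00164 to 0.0662 over 12 alternatives), lost without Eph4-ev replicate 1 (0.0662) or 3 (0.0624) and with no filter (0.0658). The larger circle of exons 4 to 9 (chr9:86372341-86440754), which begins at the same base, had 9, 12 and 20 reads against 32, 27 and 18 and a log2 fold of -0.01 (with an SE of 0.46, edgeR adjusted p = 0.994). The test of the difference between the circles was not run.

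The circle of Fbxo42 had 2, 3 and 5 reads in 4T1 and 0 in Eph4-ev, and was at least 6.97-fold higher in 4T1 (edgeR adjusted p = 0.0307). That of Klhl22, an adaptor of a cullin ligase (exons 2 to 6, chr16:17764384-17789370), had 4, 2 and 5 reads against 0, at least 7.66-fold higher (edgeR adjusted p = 0.0293). The Rnf114 circle of exons 3 to 4 (chr2:167510876-167511326) had 2, 3 and 8 reads against 0, 1 and 0, a pooled ratio of 27.2 (95% exact counting interval 4.08 to 1154; edgeR adjusted p = 0.0459). These 3 calls rest on 10 to 13 reads and were lost in most alternatives, 6 of 8 for Fbxo42 (0.0282 to 0.289), 5 of 8 for Klhl22 (0.0271 to 0.231) and 8 of 10 for Rnf114 (0.0390 to 0.442). Leaving out any 1 Eph4-ev library lost all 3, and leaving out 4T1 replicate 1 or 2 lost that of Rnf114. With replicate number as a block they stood at 0.220, 0.190 and 0.287.

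The Rnf169 circle had 30, 34 and 36 reads in 4T1 against 161, 188 and 182 in Eph4-ev (log2 fold -1.39 with an SE of 0.28, edgeR adjusted p = 0.0105, and 4.15e-06 to 0.0830 over 12 alternatives). The Usp3 circle of exons 2 to 8 had 7, 11 and 29 reads in 4T1 against 67, 94 and 71 in Eph4-ev, or 573 ± 108 and 1420 ± 208 RPM (SD, n = 3; log2 fold -1.49 with an SE of 0.33, edgeR adjusted p = 0.0141, and 0.00159 to 0.0923 over 12 alternatives). Both were lost only without Eph4-ev replicate 2. Summed over its circles, Usp3 was not called (log2 fold -0.82 with an SE of 0.32, edgeR adjusted p = 0.0954, and 0.0414 to 0.263 over 12 alternatives). Its shorter circle of exons 4 to 8, which shares the downstream end (chr9:66540062-66547955), had 7, 0 and 28 reads in 4T1 against 17, 3 and 3 in Eph4-ev (log2 fold 1.17 with an SE of 1.04, edgeR adjusted p = 0.515).

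The Fbxw7 circle is exon 3 alone and holds the annotated start codon. It had 17, 17 and 61 reads in 4T1 against 118, 113 and 107 in Eph4-ev, or 1139 ± 208 and 2084 ± 216 RPM (SD, n = 3; log2 fold -1.05 with an SE of 0.27, edgeR adjusted p = 0.0228, and 0.00502 to 0.0922 over 12 alternatives). The call ended without 4T1 replicate 2 (0.0550) or Eph4-ev replicate 1 (0.0763) or 2 (0.0922). The Fbxw7 host sum did not pass (log2 fold -0.71 with an SE of 0.28, edgeR adjusted p = 0.0986). It includes a second circle (chr3:84863964-84904079) that had 15, 0 and 0 reads in 4T1 against 0, 0 and 11 in Eph4-ev.

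Rnf115 circles were all of 1 kind, with the counts given for the host. The Usp12 circle had 0 reads in 4T1 against 8, 9 and 10 in Eph4-ev, at least 4.31-fold lower in 4T1 (edgeR adjusted p = 0.0338, and 0.0324 to 0.141 over 11 alternatives, 2 of which called it). It was lost when any 1 of the 6 libraries was left out and with the replicate block (0.141). Summed over its circles, Usp12 had 0, 0 and 10 reads in 4T1 against 13, 9 and 11 in Eph4-ev. That sum was not called (log2 fold -1.12 with an SE of 1.03, edgeR adjusted p = 0.514).

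In Rnf114, Rnf169, Ube2cbp and Usp3, a called circle was accompanied by a tested circle with a fitted fold of the other sign. None of these others was called: their log2 folds were -0.25 and -0.94 in Rnf114, 0.92 in Rnf169, -0.01 and -0.41 in Ube2cbp, and 1.17 in Usp3, with edgeR adjusted p from 0.281 to 0.994.

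In B16F10 against Melan-a, 2 of 27 member hosts tested were called, Fbxw7 higher and Fbxw8 lower in B16F10. Of all 898 hosts tested, 2.78% were called higher and 4.34% lower (25 and 39, or 34 and 32 with total-read scaling). The count was 0, of 31 to 40 members tested, without any 1 library other than Melan-a replicate 2. The median log2 fold was -0.06 for members and 0.00 for all, and 5 of 27 had an unadjusted p under 0.05, against 190 of all 898 (21.2%). The tested members were 23 ligase hosts, 2 E2 hosts and 2 Usp hosts, so the class contrast could hardly be tested here. Usp6nl, Klhl12, Rnf115 and Cul4a, called in the mammary lineage, had too few reads to be tested alone in this one.

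Fbxw7 had 41, 28 and 26 reads in B16F10 against 13, 28 and 18 in Melan-a, or 1753 ± 261 and 690 ± 160 RPM (SD, n = 3), with no overlap in RPM. Its fitted log2 fold came to 1.23 (with an SE of 0.33, edgeR adjusted p = 0.0431, and 0.0161 to 0.180 over 12 alternatives). It was lost without any 1 B16F10 library (0.180, 0.106 and 0.0737), without Melan-a replicate 1 (0.109) or 3 (0.0960) and with replicate number as a block (0.0506). The exon 3 circle carried it, with 37, 26 and 26 reads against 11, 28 and 15 (a log2 fold of 1.31 and an SE of 0.36, edgeR adjusted p = 0.0330, and 0.00491 to 0.167 over 12 alternatives, 5 of which called it).

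Fbxw8 had 19, 14 and 9 reads in B16F10 against 57, 58 and 46 in Melan-a, or 772 ± 211 and 1943 ± 290 RPM (SD, n = 3). Its fitted log2 fold came to -1.40 (with an SE of 0.33, edgeR adjusted p = 0.0201, and 0.0136 to 0.137 over 12 alternatives). Leaving out any 1 B16F10 library (0.0713, 0.0856 and 0.137) or Melan-a replicate 1 (0.0750) or 3 (0.0573) ended the call. Its circle of exons 6 to 7 had 17, 13 and 6 reads against 45, 50 and 41 (a log2 fold of -1.35 and an SE of 0.38, edgeR adjusted p = 0.0330, and 0.0160 to 0.215 over 12 alternatives, 5 of which called it). These were the only 2 of 23 member circRNAs called, while 5.03% of all 874 circRNAs tested were called higher and 5.84% lower. Both circle calls were lost without the same 5 libraries as the host calls. Fbxw18, an F-box host with 0 reads in both mammary lines, had 8, 4 and 13 reads in B16F10 against 0, 1 and 2 in Melan-a, a pooled ratio of 13.01 (95% exact counting interval 3.97 to 67.3), and missed the threshold (edgeR adjusted p = 0.0511).

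The folds of the lineages were then compared in a single fit over the 12 libraries. Of 48 member hosts tested, 4 differed, Fbxo42 and Fbxw8 with the higher fold in the mammary lineage and Fbxw7 and Usp6nl with the higher fold in the melanocyte lineage. Of all 1268 hosts tested, 4.57% differed in the first direction and 5.91% in the second. The count was 2 of 53 tested without B16F10 replicate 2. For Fbxw7 the mammary fold minus the melanocyte fold was -2.06 (SE 0.47, edgeR adjusted p = 0.00409, and 0.000551 to 0.0226 over 16 alternatives, all of which called it). The exon 3 circle, called in each comparison, was lower in the breast cancer line than in its counterpart and higher in the melanoma line than in its own. For Fbxo42 the difference was 5.58 (SE 1.18, edgeR adjusted p = 0.00216, and 0.000607 to 0.0107 over 16 alternatives, all of which called it), a fitted value that depends on the prior count since Eph4-ev stood at 0. Fbxo42 had 24, 27 and 24 reads in B16F10 against 24, 28 and 29 in Melan-a (log2 fold 0.43 with an SE of 0.31, edgeR adjusted p = 0.481).

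For Fbxw8 the difference was 2.17 (SE 0.65, edgeR adjusted p = 0.0283, and 0.00920 to 0.254 over 16 alternatives). 4T1 replicate 3, with 84 Fbxw8 reads (1882 RPM) against 6 and 16 (385 and 902 RPM) in the other 4T1 libraries, weighed most. Of the 84 reads, 21 came from a circle (chr5:118124936-118142772) that had 0 in the other mammary libraries. Without 4T1 replicate 3 the difference was 1.28 (0.254) and the mammary fold, 0.72 with all libraries, was -0.18. The call was also lost without Eph4-ev replicate 1 (0.0803) or 2 (0.106), B16F10 replicate 2 (0.0516) or 3 (0.0973) or Melan-a replicate 1 (0.0730). For Usp6nl the difference was -4.85 (SE 1.20, edgeR adjusted p = 0.00756, and 0.000565 to 0.139 over 16 alternatives), lost without B16F10 replicate 2. In the melanocyte lines Usp6nl had 4, 12 and 0 reads in B16F10 against 1, 0 and 1 in Melan-a, a pooled ratio of 12.5 (95% exact counting interval 2.94 to 112). Rnf169, called in the mammary lineage, had a difference of -1.06 (SE 0.37, edgeR adjusted p = 0.0677, and 0.0138 to 0.192 over 16 alternatives), so its folds were not shown to differ.

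**Figure D5:**
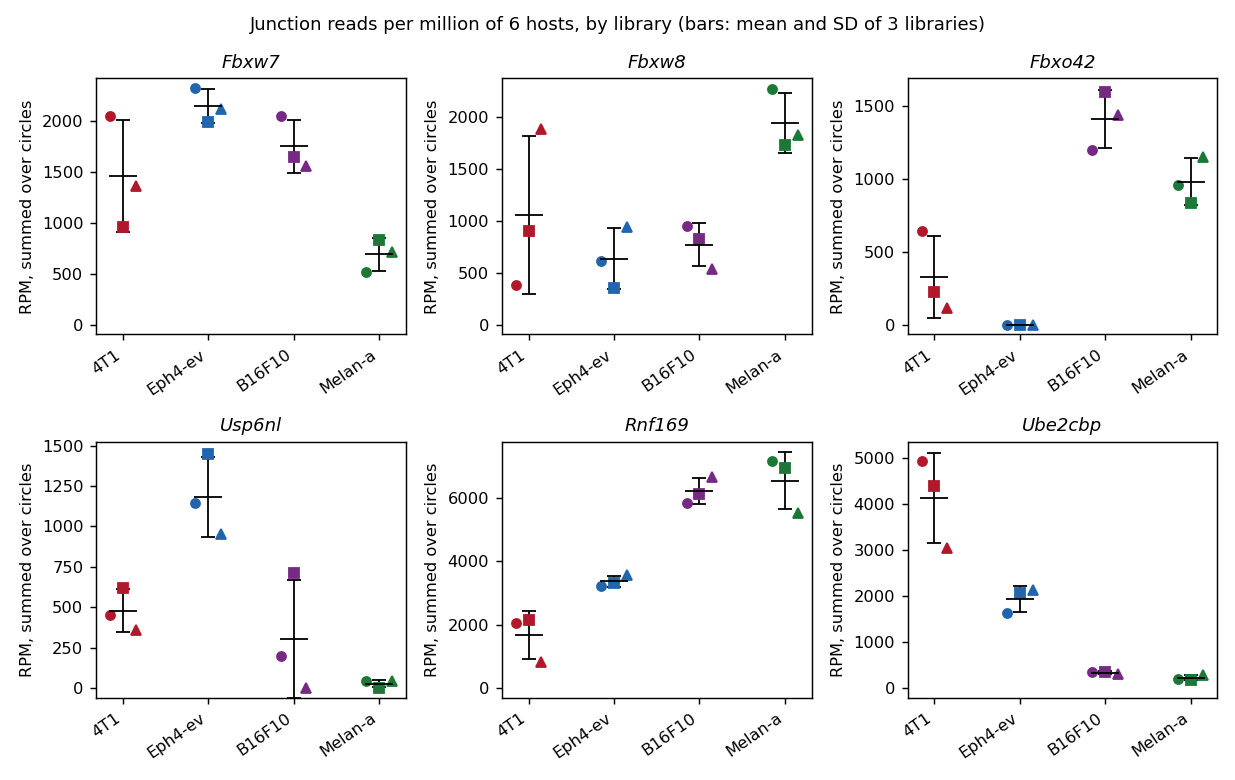
RPM of 6 hosts, summed over their circles, with 1 point per library (circle, square and triangle for replicates 1, 2 and 3) and bars for the mean and SD of 3 libraries. Fbxw7 is lowest in Melan-a (690 ± 160 RPM), Fbxo42 is at 0 in Eph4-ev, and 4T1 libraries are far apart for Fbxw8 (1057 ± 760 RPM).

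Some member circles were found in only 1 line of a lineage, with at least 2 reads in each of its libraries and 0 in the other line. There were 4 of 318 in 4T1, where 0.548% of all circRNAs were of this kind, and 7 in Eph4-ev, where 3.52% were. There was 1 of 293 in B16F10 (0.373% of all) and there were 2 in Melan-a (0.497% of all). In 4T1 these were the circle of Rnf13, a membrane RING ligase (exons 2 to 4, chr3:57764257-57779508), with 7, 4 and 3 reads and a level at least 9.75-fold higher, that of Klhl12 (exons 6 to 7, chr1:134475788-134483853) with 5, 3 and 4 reads and at least 8.36-fold, and those of Klhl22 and Fbxo42 above. Each of the 4 had reads in some melanocyte library. In Eph4-ev they included those of Rnf115 and Usp12, Fbxw11 (9, 4 and 8 reads, at least 3.35-fold), Usp5, which recycles free ubiquitin chains (5, 2 and 4 reads, at least 1.75-fold), Trim37 and Usp48. B16F10 had that of Usp24 (5, 5 and 2 reads, at least 6.25-fold), and Melan-a those of Rnf149 (8, 9 and 2 reads, at least 4.06-fold) and Trim33 (9, 4 and 2 reads, at least 3.20-fold). With at least 5 reads per library required, the counts were 0, 2, 0 and 0 in 4T1, Eph4-ev, B16F10 and Melan-a. The share of all circRNAs at that minimum is not given here. Leaving out a library relaxes the rule, and the share of all circRNAs under the relaxed rule is not given here. Each count could therefore only stay or rise. That of 4T1 came to 9 with 4T1 replicate 1 left out, and that of Eph4-ev to between 12 and 15 with any 1 of the 6 mammary libraries left out. That of B16F10 came to 4, 5 or 3 with its own replicate 1, 2 or 3 left out and to 2 with Melan-a replicate 3 left out. That of Melan-a came to 4, 3 or 5 with its own replicate 1, 2 or 3 left out, and to 5 or 3 with B16F10 replicate 2 or 3 left out.

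Ubiquitin genes that the symbol pattern does not take were read from a list of 176, holding activating enzymes, other ligases and deubiquitinases, ubiquitin-binding shuttles, SUMO proteases and ubiquitin genes. In the mammary comparison 86 had reads, 45 were tested, 1 rose and 4 fell, and 12 stood at an unadjusted p under 0.05 (median log2 fold -0.35). Of all hosts tested, 6.86% were called higher, 10.6% lower and 31.2% had such an unadjusted p, so these counts are near or below the background. Arih1, a RING-between-RING ligase that works with cullins, had 23, 40 and 76 reads in 4T1 against 32, 41 and 28 in Eph4-ev (log2 fold 1.40 with an SE of 0.32, edgeR adjusted p = 0.00794). Rad23b, a shuttle that carries ubiquitinated proteins to the proteasome, had 0 reads in each 4T1 library and 96, 77 and 70 in Eph4-ev, at least 38.8-fold lower in 4T1 (edgeR adjusted p = 1.7e-05). It also fell in the melanocyte comparison, with 1, 1 and 1 reads in B16F10 against 14, 10 and 23 in Melan-a, a pooled ratio of 10.03 in favour of Melan-a (95% exact counting interval 3.23 to 50.4; edgeR adjusted p = 0.0176).

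Ubl3, a ubiquitin-like membrane anchor, had 0 reads in 4T1 against 12, 28 and 14 in Eph4-ev, at least 8.61-fold lower (edgeR adjusted p = 0.00863). The SUMO protease host Senp6 (log2 fold -1.21 with an SE of 0.25) and Rad18, a ligase of DNA damage tolerance (log2 fold -2.34 with an SE of 0.56), were lower in 4T1 as well (edgeR adjusted p = 0.00331 and 0.0105). In the melanocyte comparison 30 of 82 listed hosts with reads were tested, 1 rose, 1 fell and 5 stood at an unadjusted p under 0.05, against 2.78%, 4.34% and 21.2% of all hosts tested. Beside Rad23b, Bard1, the RING partner of Brca1, was called: it had 9, 24 and 15 reads in B16F10 against 1, 10 and 2 in Melan-a (log2 fold 2.47 with an SE of 0.68, edgeR adjusted p = 0.0464).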

How the data were processed

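Deposited tables, 1 per lineage, hold raw counts of back-spliced junction reads, per the file headers, and RPM values, which by their values the authors made by dividing each deposited count by its column total (100% whole reads, largest difference 0). Per the labels' protocols, TRIzol RNA was treated with RNase R and circRNAs were called with CIRI2 (BWA-MEM) and CIRCexplorer2 (TopHat). Coordinates are on mm10, which the submitters' processing notes name, and how the callers' reads were combined is not given in the sources used here. Library totals were 15572, 17735 and 44625 reads in 4T1, 50648, 56649 and 55549 in Eph4-ev, 20011, 16943 and 16697 in B16F10 and 25072, 33557 and 25157 in Melan-a.

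Members and gene lists were chosen with earlier results of these data known. Counts were summed per host over circRNAs with 1 named host. The melanocyte table writes some hosts as dates, and these were not matched. Each lineage was tested alone on its whole table with edgeR 4.0.16 in R 4.3.3 (TMM factors, a quasi-likelihood F test after filterByExpr at minimum count 5 and minimum total 10, Benjamini-Hochberg adjustment, called under 0.05). Folds are log2 of tumour over non-tumour line, with SE from the F statistic. The difference between lineages was the interaction over 12 libraries, on circRNAs both tables list. For a line at 0, folds are bounds against a floor of 3 reads over its 3 libraries. With 1 to 3 reads, pooled ratios have a 95% exact counting interval. Both are scaled by total reads. The bounds take the higher line's reads as counted, without counting error, so they are not lower confidence limits. The intervals cover counting error only, since no molecular identifiers are named. The 418 members' exons and joins come from GENCODE M21. The hosts named are the 12 with the highest mean RPM over the 4 lines, the most abundant of each family, all called hosts and circRNAs, up to 5 circRNAs found only in each line, called genes of the wider list, and Fbxw18, Fbxl5, Usp48 and Trim37 circles chosen after their values were seen. Some genes that meet this rule are not reported here, but counts over the members include them. Of the 5 most abundant circRNAs per line, all belong to hosts described. Alternatives were RLE factors, total-read scaling, DESeq2 1.42.0, no filter or a minimum of 10 counts, a replicate block, leaving out each library, and other class or read minimums. The scripts were tested on simulated data.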

Additional observations from a re-analysis of the deposited data

Results flagged for a closer look

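The fold of Fbxw7 was lower in the mammary than in the melanocyte lineage (difference -2.06 on the log2 scale, edgeR adjusted p = 0.00409), as was that of Usp6nl (-4.85, 0.00756). Those of Fbxw8 (2.17, 0.0283) and Fbxo42 (5.58, 0.00216) were higher. All 4 come from the interaction test over the 12 libraries.

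CircRNAs to which the tables give several hosts were left out of every sum. For Klhl2 they held 228 reads in the mammary and 56 in the melanocyte table, for Klhl8 227 and 36, for Herc6 33 and 5 and for Ube3a 42 and 28, and for Rnf214 30 in the mammary table. All 42 mammary reads of Ube3a, an E6-associated HECT ligase, came from a single circle (chr7:59240967-59247217) in a single library, Eph4-ev replicate 1. The same circle had 27 reads in B16F10 replicate 3 and 0 in the other 10 libraries.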

How the results depend on the processing

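Counts of called members moved with filters, blocks and libraries. Of the host and circRNA folds so compared, 0 of 33 that passed the test in some setting and 13 of 44 that passed in none changed sign in an alternative. This split was made on the same fits and puts folds far from 0 in the first group, so it does not measure stability. The number tested moved with them, and the shares called among all hosts or circRNAs in the alternatives are not given here. Mammary member hosts called were 7 of 54 tested (4 higher, 3 lower), against 11 of 116 (3 and 8) with no filter. They were 4 of 37 (2 and 2) with a minimum count of 10 and 6 of 54 (2 and 4) with the replicate block (0 to 12 without a library). Mammary circRNAs were 10 of 62, against 6 of 318 with no filter. They were 4 of 33 with a minimum count of 10 and 6 of 62 with the replicate block (1 to 5). Melanocyte hosts were 2 of 27, against 3 of 27 with RLE factors or total-read scaling and 3 of 108 with no filter. With the replicate block they were 1 of 27 (0 to 2 without a library). Melanocyte circRNAs were 2 of 23, against 0 of 293 with no filter and 0 of 23 with DESeq2 (0 to 2). In that comparison edgeR had 5 of the 23 member circRNAs at an unadjusted p under 0.05, against 208 of all 874 tested (23.8%). The difference between lineages held 4 calls of 48 tested, against 6 of 112 with no filter (2 to 5 without a library). Total-read scaling moved the median mammary log2 fold of all hosts from -0.09 to 0.04 and changed no member call in that comparison.

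Same-numbered libraries of a lineage had correlations of -0.089 to 0.021 in their deviations, and different-numbered ones -0.025 to 0.084. The deviations of a line's 3 libraries are tied to each other, so these values cannot show whether same-numbered libraries share a preparation. The labels do not say. The replicate block gave 4 differences between lineages, and lost 8 and gained 1 of the calls of the hosts and circRNAs so compared.

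Without Usp6nl the deubiquitinase share was 9.84% in 4T1 and 11.98% in Eph4-ev. The ligase to deubiquitinase ratio in 4T1 was 7.998 with Ube2 hosts counted as ligases and 7.41 with Ube2cbp alone so counted, the latter chosen after seeing the data. So was the E2 share with Ube2cbp not counted as E2, which was 6.40%, 4.13% and 3.41% in 4T1, Eph4-ev and Melan-a, against 19.2%, 10.2% and 4.12%. With at least 2 reads, 93.3, 142, 76.7 and 86 member circRNAs were detected in 4T1, Eph4-ev, B16F10 and Melan-a, and at the shallowest depth 108, 121 and 99.4 in 4T1, Eph4-ev and Melan-a. Circles found only in 1 line numbered 9, 17, 2 and 5 with at least 1 read and 0, 2, 0 and 0 with at least 5. Without a library they numbered 4 to 9, 12 to 15, 1 to 5 and 2 to 5. The shares of all circRNAs under these rules are not given here, so no excess among members is read from these counts. Depth limits what a count of 0 shows here.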
